A study of Mus musculus with 89 samples.

Results

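The genes described here are those of retinoid metabolism and binding: Stra6, Dhrs3, Aldh1a2, Crabp1, Crabp2 and Cyp26a1. They were taken by gene symbol, 6 of the 54146 gene rows, and each symbol had a single row. Their RNA was followed in mouse embryonic stem cells (ESCs) that had lost the orphan nuclear receptors Esrrb, Nr5a2 or both, under 2 culture conditions. RNA-seq was available for 20 libraries in 8 groups of state and medium.

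All groups derived from EKOiE ESCs, in which the endogenous Esrrb gene is knocked out and an Esrrb transgene is induced by doxycycline (Dox, 1 µg/ml), so every library, controls included, carries that knockout and that transgene. The controls, +E+N, were EKOiE cells kept in Dox. The −E cells were EKOiE cells 2 days after Dox withdrawal. The −N cells were EKOiE NrKO, in which the exon coding for the Nr5a2 DNA-binding domain is disrupted on both alleles, kept in Dox, and the −E−N cells were EKOiE NrKO 2 days after withdrawal. Each state was grown in FCS/LIF (fetal calf serum; n = 2 libraries a state) and in 2i/LIF (serum-free medium with inhibitors of MEK and GSK3; n = 3 a state). The labels do not name the NrKO clone, so the loss of Nr5a2 and the derivation of that line cannot be told apart, and neither can the medium and the culture series it was grown in. The loss of Esrrb and the withdrawal of Dox always went together, so they cannot be told apart either. The study describes the RNA-seq replicates of a state as independent experiments, and p-values measure the spread between them.

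Retinol enters cells through the membrane receptor Stra6 and is oxidised to retinal and then to retinoic acid, the last step by aldehyde dehydrogenases such as Aldh1a2, while Dhrs3 reduces retinal back to retinol. The small binding proteins Crabp1 and Crabp2 carry retinoic acid in the cytoplasm, Crabp2 handing it to nuclear retinoic acid receptors, and Cyp26a1 hydroxylates it for removal. Retinoic acid is widely used to drive ESCs out of self-renewal, and Cyp26a1 is a textbook example of a gene that it induces.

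The promoter of Cyp26a1 is shown because it was the single member window that held a retinoic acid response element by the letters searched. Cyp26a1 (ENSMUSG00000024987) lies on chromosome 19, 37697798 to 37701536, plus strand, in mm10 with the GENCODE vM21 annotation. The window around its RefSeq start, chr19:37697558-37697857 in GRCm38.p6, plus strand, covers 250 bases before that start and 50 from it. The RefSeq start differs from the GENCODE start given above. The capitals mark a direct repeat of 2 hexamers with 5 bases between them (DR5), read on the minus strand.
Cyp26a1 promoter: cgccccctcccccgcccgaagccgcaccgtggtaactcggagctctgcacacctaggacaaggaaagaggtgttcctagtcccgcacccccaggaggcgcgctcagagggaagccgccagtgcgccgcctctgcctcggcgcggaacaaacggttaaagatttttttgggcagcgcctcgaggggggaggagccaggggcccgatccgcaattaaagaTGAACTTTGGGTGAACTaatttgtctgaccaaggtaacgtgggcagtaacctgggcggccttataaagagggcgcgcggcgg
The repeat, at 37697776 to 37697792, begins 32 bases before the RefSeq start. The DR5 of the retinoic acid receptor hexamer was searched on both strands, as was the same repeat with 2 bases between the hexamers (DR2). A DR5 was found in 0.0974% and a DR2 in 0.268% of the 32851 RefSeq promoter windows of this length. The Esrrb and Nr5a2 motifs TCAAGGTCA and TCAAGGCCA, also searched on both strands, were found in 0.423% and 0.591% of windows and in none of the 10 windows of the 5 members present in the table; these letters can overlap a hexamer of the repeats. None of these windows other than that of Cyp26a1 held a DR5, and none held a DR2. Crabp2 had no window and was not searched for any of these motifs. A match describes the letters only, and windows of 300 bases say nothing of sequence farther away.

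The other members lie on chromosome 3 (Crabp2, ENSMUSG00000004885, 87948666 to 87953376), chromosome 4 (Dhrs3, ENSMUSG00000066026, 144892827 to 144928209) and chromosome 9 (Crabp1, ENSMUSG00000032291, 54764748 to 54773110; Stra6, ENSMUSG00000032327, 58063788 to 58153996; Aldh1a2, ENSMUSG00000013584, 71215789 to 71296243), all on the plus strand of mm10 and all protein-coding. Stra6 overlaps Ccdc33 on the other strand and Gm16131 on its own, and Aldh1a2 overlaps Gm48124 on the other strand. Ccdc33 had 0 to 20 counts in every library, and both Gm16131 and Gm48124 had 0, against 57 to 2063 counts for Stra6 and 22 to 294 for Aldh1a2.

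Library totals ran from 26653035 to 45443379 counts. Esrrb RNA, which mixes transgene and disrupted endogenous transcript, was measured in TPM, a level scaled to transcript length and library size. In FCS/LIF it ranged from 155.5 to 248.9 TPM with Dox and from 16.83 to 40.14 without. In 2i/LIF it ranged from 132.57 to 272.6 TPM with Dox, from 113.43 to 133.03 in −E and from 31.05 to 49.87 in −E−N, so that the highest −E library stood level with the lowest −N library. Nr5a2 counts still include transcripts of the disrupted alleles and so do not check the NrKO label. In 2i/LIF the third −E−N library stood apart: its counts differed from those of replicates 1 and 2 by a chi-square of 28.3 and 22.8 per degree of freedom, against 9.26 between those replicates, and its Esrrb level, 31.1 TPM, was the lowest of the 2i/LIF libraries. The first −E library stood apart to a like degree (26.8 and 25.9 against replicates 2 and 3, with 7.90 between those). Results that rest on either library are also given without it. In these bulk samples fewer cells of a type and less RNA per cell cannot be told apart.

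Levels between genes were compared per length, as TPM. In FCS/LIF controls Crabp2 was highest at 25.985 ± 0.0778 TPM, followed by Crabp1 at 15.2 ± 2.64, Cyp26a1 at 1.65 ± 0.163, Stra6 at 1.31 ± 0.346, Aldh1a2 at 0.96 ± 0.283 and Dhrs3 at 0.43 ± 0.0141 (SD, n = 2). The ranges of Cyp26a1 and Stra6 overlapped, as did those of Stra6 and Aldh1a2. In 2i/LIF controls the order was Crabp1 at 22.5 ± 6.62 TPM, Crabp2 at 5.03 ± 1.17, Dhrs3 at 2.57 ± 0.771, Stra6 at 1.99 ± 0.809, Aldh1a2 at 0.833 ± 0.510 and Cyp26a1 at 0.233 ± 0.148 (SD, n = 3), with Dhrs3 and Stra6, and Stra6 and Aldh1a2, overlapping. The binding proteins were thus the most abundant members in both media and the enzymes were scarce.

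**Figure D1:**
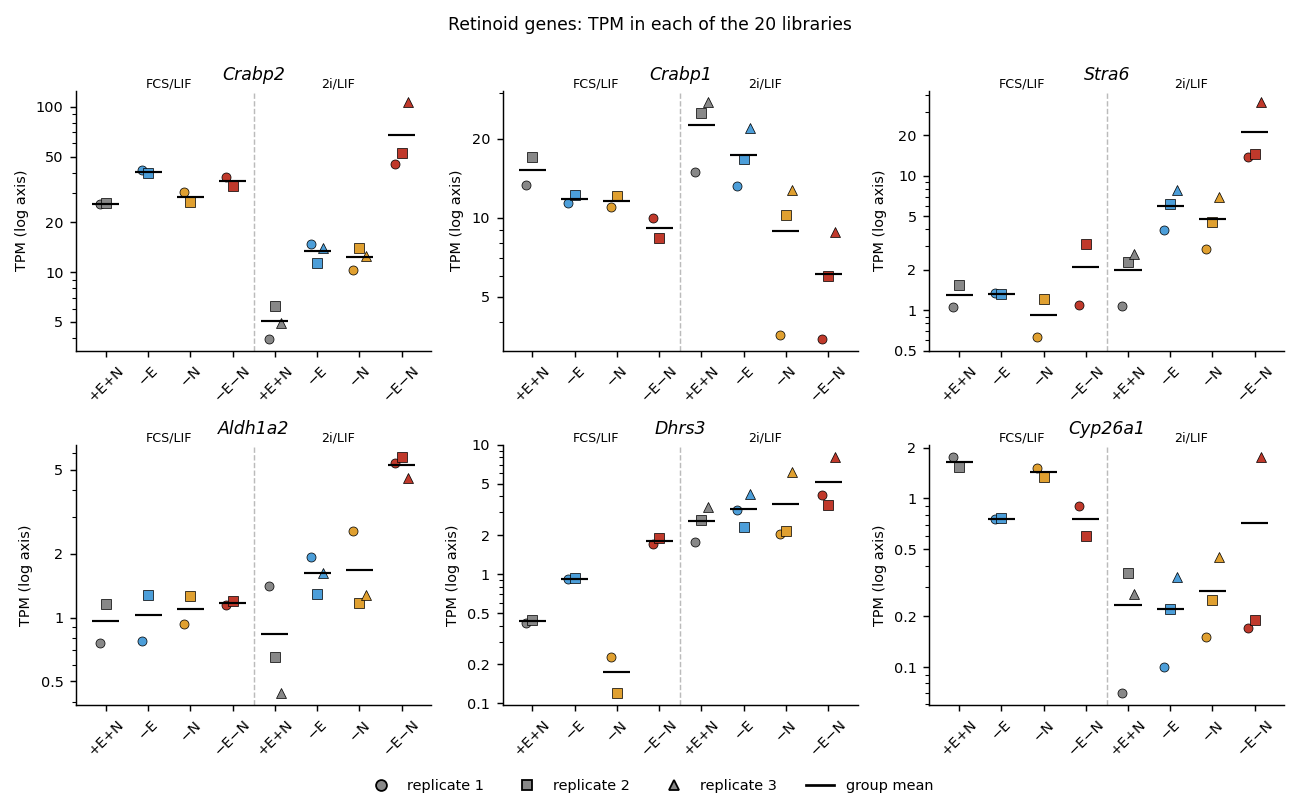
TPM of each retinoid gene (vertical, log axis) in every library of the 8 groups (horizontal), with points shaped by replicate number and a bar at the group mean. The 3 −E−N libraries in 2i/LIF lie above all other 2i/LIF libraries for Crabp2, Stra6 and Aldh1a2, and the third lies far above the other 2 for Crabp2, Stra6 and Cyp26a1.

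The comparison of control cells between media gives the starting point of each response. A gene was called where edgeR's quasi-likelihood test gave a Benjamini-Hochberg adjusted p under 0.01 and the fold change was over 1.5. By this rule 3 of 6 members differed, against 34.7% of the 16147 genes tested over both media. Crabp2 and Cyp26a1 were lower in 2i/LIF, with log2 fold changes of −2.28 (SE 0.284, adjusted p = 2.98e-06) and −2.81 (SE 0.740, adjusted p = 0.0035), whereas Dhrs3 was higher by 2.65 (SE 0.537, adjusted p = 0.000435). For Cyp26a1 the call was lost without any 1 of 4 of the 5 control libraries (all but 2i +E+N replicate 2), with adjusted p from 0.0106 to 0.0191, and for Dhrs3 without FCS +E+N replicate 2 (adjusted p = 0.0102); Crabp1, Stra6 and Aldh1a2 did not pass.

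Crabp2, the retinoic acid carrier that serves the nuclear receptors, had the largest log2 fold change of the members in 2i/LIF. The controls had 3.94, 6.27 and 4.89 TPM, −E had 14.89, 11.36 and 13.99, −N had 10.29, 13.96 and 12.6, and −E−N had 44.82, 52.83 and 106.08. The −E−N libraries lay above all others, −E and −N overlapped each other, and both lay above the controls. Of all genes tested in 2i/LIF, 52.9% did not overlap between −E−N and +E+N, 38% between −E−N and −N, and 43% between −E−N and −E. Between −E and +E+N the share was 24.8%, and between −N and +E+N it was 32.4%. These shares apply to each non-overlap given for 2i/LIF below. In −E−N against +E+N the log2 fold change was 3.75 (SE 0.314, edgeR adjusted p = 2.36e-06), and without the third −E−N library it was 3.27 (adjusted p = 8.65e-07).

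Stra6, the retinol receptor, followed the same order of groups in 2i/LIF. It stood at 1.08, 2.28 and 2.62 TPM in the controls, while −E had 3.93, 6.17 and 7.84, −N had 2.86, 4.57 and 6.96, and −E−N had 13.79, 14.6 and 35.22. Again no −E−N library overlapped another group. The log2 fold change in −E−N was 3.40 (SE 0.437, edgeR adjusted p = 6.31e-05), or 2.82 (adjusted p = 0.000106) without the third library.

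Aldh1a2, which makes retinoic acid from retinal, rose in −E−N as well, and here the third library was not the highest. The controls had 1.41, 0.65 and 0.44 TPM, −E had 1.94, 1.3 and 1.62, −N had 2.58, 1.17 and 1.28, and −E−N had 5.4, 5.77 and 4.56. The control, −E and −N libraries overlapped, and the −E−N libraries lay above all of them. The log2 fold change was 2.61 (SE 0.419, edgeR adjusted p = 0.000337), or 2.70 (adjusted p = 0.000785) without the third library.

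Crabp1, the carrier linked to cytoplasmic turnover of retinoic acid, moved the other way. It measured 15.02, 25.01 and 27.55 TPM in 2i/LIF controls, while −E had 13.24, 16.81 and 21.95, −N had 3.58, 10.26 and 12.8, and −E−N had 3.45, 5.98 and 8.83. The −N and −E−N libraries overlapped each other and lay below all controls, and replicate 1 was the lowest of each group. The log2 fold change in −E−N was −1.89 (SE 0.407, edgeR adjusted p = 0.00265). This call was close to the limit: without any 1 of 4 libraries (+E+N replicates 2 and 3, −E−N replicates 1 and 2) the adjusted p lay between 0.0106 and 0.0121.

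The 2 remaining members were not called in 2i/LIF. Dhrs3, the retinal reductase, stood at 1.77, 2.62 and 3.31 TPM in the controls, while −E had 3.12, 2.33 and 4.15, −N had 2.05, 2.17 and 6.14, and −E−N had 4.11, 3.42 and 8.02. The −E−N libraries lay just above the controls and overlapped −E and −N, with a log2 fold change of 0.85 (SE 0.448, edgeR adjusted p = 0.149) in −E−N, or 0.39 (adjusted p = 0.54) without the third library. Cyp26a1, the retinoic acid hydroxylase, had only 3 to 16 counts in 11 of the 12 libraries and 69 in the third −E−N library (1.77 TPM, against 0.17 and 0.19 in the other 2). It did not pass the filter of at least 20 counts in all replicates of 1 state and was not tested within 2i/LIF.

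In total 4 of the 5 members tested in 2i/LIF were called in −E−N against +E+N, 3 higher and 1 lower, beside 18.6% of all 14355 genes tested. In −E none was called by edgeR (1.55% of all genes) and in −N none (3.65%). In edgeR 3 and 4 members had an unadjusted p under 0.05, DESeq2 called 1 and 2 (447 and 860 of all genes), and limma on TPM called none. The share of all genes with an unadjusted p under 0.05 is not given here or below, so such counts cannot be weighed against it. Crabp2 was the nearest, with log2 fold changes of 1.46 in −E (SE 0.309, adjusted p = 0.0162) and 1.28 in −N (SE 0.311, adjusted p = 0.0199).

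Libraries of the same replicate number deviated together in 2i/LIF, in all 3 pairs of each comparison except −E−N with +E+N, and taking replicate number as a block in the model changed several of these calls. With the block Crabp2 passed in −E (1.47, adjusted p = 0.00381) and in −N (1.29, adjusted p = 0.00621). Stra6 passed likewise in −E (1.59, adjusted p = 3.57e-05) and in −N (1.05, adjusted p = 0.0006), and Crabp1 was lower in −N (−1.43, adjusted p = 0.000235). So 2 members in −E and 3 in −N were called with the block, beside 596 and 1115 of all 14355 genes tested. Without the block 223 and 524 genes were called. Without the first −E library, and with no block, no member passed in −E (Crabp2 1.31, adjusted p = 0.0512; Stra6 1.79, adjusted p = 0.0451). Without the third −E−N library, again with no block, Crabp2 alone passed in −E (1.46, adjusted p = 0.00123) and in −N (1.28, adjusted p = 0.00158).

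**Figure D2:**
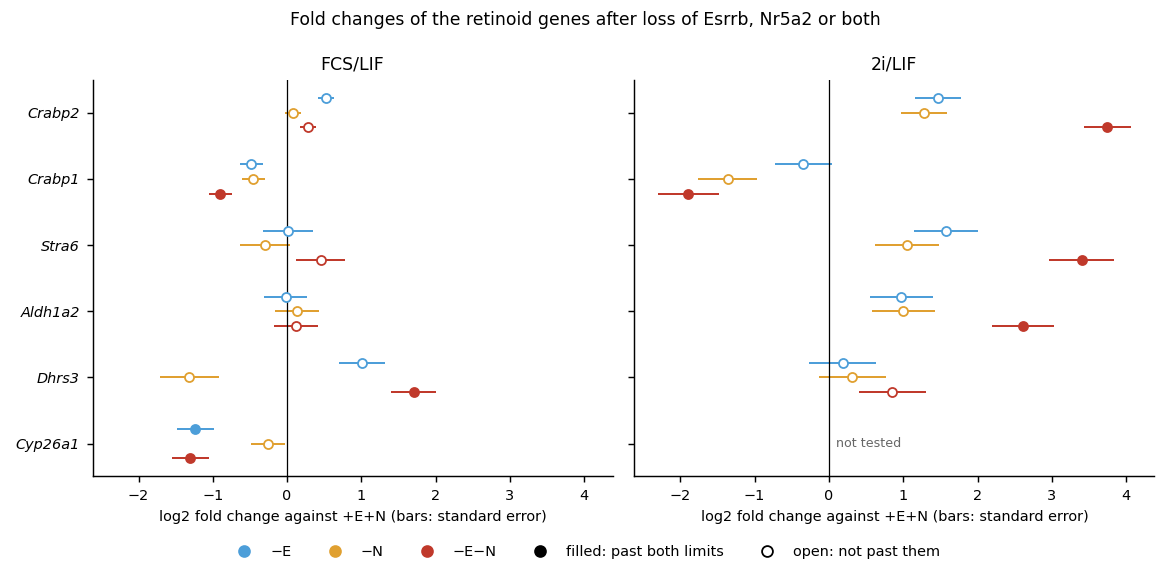
Log2 fold change of each retinoid gene against +E+N (horizontal, bars show the standard error of the edgeR fit) for −E, −N and −E−N in FCS/LIF (left) and 2i/LIF (right); filled points passed both limits. Crabp2, Stra6 and Aldh1a2 reach 3.75, 3.40 and 2.61 in 2i/LIF −E−N and reach at most 0.52 in the FCS/LIF panel.

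The effect of losing each receptor when the other was already gone was read from −E−N against −N and against −E. Against −N, 2 of 5 members were called, beside 6.76% of all genes: Crabp2 by 2.47 (SE 0.290, edgeR adjusted p = 0.000154) and Stra6 by 2.35 (SE 0.410, adjusted p = 0.00199). Aldh1a2 differed by 1.61 (adjusted p = 0.0135), and by 1.71 (adjusted p = 0.000216) with the replicate block, which made 3. Of all genes, 1622 were called against −N with the block and 970 without it. Without 2i −N replicate 2 the call of Stra6 against −N was lost (2.31, adjusted p = 0.0129).

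Against −E, 3 of 5 were called, beside 13.1% of all genes: Crabp2 by 2.29 (SE 0.287, edgeR adjusted p = 9.87e-05), Stra6 by 1.83 (SE 0.399, adjusted p = 0.00407) and Aldh1a2 by 1.64 (SE 0.397, adjusted p = 0.00757). Crabp1, at −1.54 (adjusted p = 0.0117), passed with the replicate block (−1.61, adjusted p = 3.74e-05), which made 4. The share of all genes called against −E with the block is not given here. Without the third −E−N library the calls of Stra6 (1.25, adjusted p = 0.0173) and Aldh1a2 (1.73, adjusted p = 0.0133) were lost and that of Crabp1 was gained (−1.91, adjusted p = 0.00899). The calls against −E were sensitive to further single libraries as well: Aldh1a2 lost its call without any 1 of the 6 −E and −E−N libraries or +E+N replicate 2 (adjusted p from 0.0109 to 0.0361), and Stra6 without −E replicate 1 or 2 (adjusted p = 0.0188 and 0.0169). Without −E replicate 1 only Crabp2 was left among the members called against −E (2.44, adjusted p = 0.000442).

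Whether the −E and −N changes add on the log2 scale was tested as an interaction, called at an adjusted p under 0.01 whatever its size. No member passed in 2i/LIF (0.307% of all genes) or in FCS/LIF (0.032%) by edgeR, DESeq2 or limma, and 1 in each had an unadjusted p under 0.05 in edgeR. In 2i/LIF the departure from additivity was 1.01 (SE 0.418, edgeR adjusted p = 0.305) for Crabp2 and 0.78 (SE 0.583, adjusted p = 0.608) for Stra6. Without the third −E−N library these values were 0.53 (adjusted p = 0.51) and 0.20 (adjusted p = 0.93).

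In FCS/LIF −E−N Dhrs3, Cyp26a1 and Crabp1 passed, Crabp1 being the member called in both media. Dhrs3, which returns retinal to retinol, stood at 0.42 and 0.44 TPM in the controls, while −E had 0.91 and 0.93, −N had 0.23 and 0.12, and −E−N had 1.71 and 1.91, from 6 to 67 counts a library. None of the 4 groups overlapped. Of all genes tested in FCS/LIF, 63.2% did not overlap between −E and +E+N, 41.5% between −N and +E+N, and 74.2% between −E−N and +E+N. Between −E−N and −N the share was 67.7%, and between −E−N and −E it was 70.4%. That between −E and −N is not given here. These shares apply to each non-overlap given for FCS/LIF below. In −E−N against +E+N the log2 fold change was 1.70 (SE 0.298, edgeR adjusted p = 0.00174) and against −N it was 3.02 (SE 0.340, adjusted p = 0.000365). With 19 and 18 counts in +E+N, Dhrs3 passed the filter of 20 counts in FCS/LIF through −E and −E−N, where it was high. That selection favours a rise in these comparisons. In −N, with 6 and 10 counts, the value was −1.31 (SE 0.391, adjusted p = 0.135) and the interaction was 2.01 (SE 0.476, adjusted p = 0.254), neither past its limit.

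Cyp26a1 had its lowest FCS/LIF levels in the libraries without Dox. It measured 1.76 and 1.53 TPM in the controls, while −E had 0.75 and 0.77, −N had 1.52 and 1.34, and −E−N had 0.9 and 0.6. The libraries without Dox (29 to 40 counts) lay below those with Dox (77 to 90 counts) whichever the Nr5a2 genotype. The shares of all genes that did not overlap are those given for Dhrs3. The log2 fold change was −1.24 in −E (SE 0.247, edgeR adjusted p = 0.00929) and −1.30 in −E−N (SE 0.251, adjusted p = 0.0029), whereas in −N it was −0.26 (SE 0.231, adjusted p = 0.644). Against −N the change in −E−N was −1.04 (SE 0.253, adjusted p = 0.0139). The −E call stood just inside the limit and was lost without any 1 of 7 of the 8 libraries (all but −N replicate 2), with adjusted p from 0.0106 to 0.0788, and with DESeq2 (adjusted p = 0.015).

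Crabp1 declined in FCS/LIF −E−N from 13.3 and 17.03 TPM to 9.95 and 8.38, with 11.38 and 12.2 in −E and 10.98 and 12.15 in −N. The −E and −N libraries lay between the control and −E−N libraries and overlapped each other. The log2 fold change in −E−N was −0.90 (SE 0.159, edgeR adjusted p = 0.00182). Crabp2, the most abundant member, went from 25.93 and 26.04 TPM to 41.18 and 39.93 in −E, a log2 fold change of 0.52 (SE 0.106, adjusted p = 0.00985) that lay under the 1.5-fold limit, and −N had 30.63 and 26.38 TPM, while −E−N had 37.55 and 33.28 (0.28, adjusted p = 0.0601).

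Stra6 and Aldh1a2, called in 2i/LIF, were not called in FCS/LIF. Stra6 stood at 1.06 and 1.55 TPM in the controls, while −E had 1.34 and 1.32, −N had 0.63 and 1.22, and −E−N had 1.09 and 3.09, so that the groups overlapped and the −E−N libraries differed from each other by more than the group means did. Aldh1a2 ranged from 0.76 to 1.28 TPM over all 8 libraries with overlapping groups. Their log2 fold changes in −E−N were 0.45 (SE 0.330, edgeR adjusted p = 0.288) and 0.12 (SE 0.294, adjusted p = 0.755).

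In FCS/LIF, then, 1 of 6 members was called in −E (5.76% of the 15636 genes tested), none in −N (0.173%), 3 in −E−N (18.8%), 1 in −E−N against −N (10.1%) and none in −E−N against −E (5.05%). For the comparisons with none called, 2 members in −N and 3 in −E−N against −E had an unadjusted p under 0.05, and neither DESeq2 nor limma called any. The 3 calls in −E−N rested on pairs of libraries: without FCS −E−N replicate 2 all 3 were lost (adjusted p from 0.019 to 0.0312), and without FCS +E+N replicate 2 those of Dhrs3 and Crabp1 were (adjusted p = 0.0138 and 0.0122). That of Cyp26a1 was also lost without FCS +E+N replicate 1 (adjusted p = 0.0183). The directions of these 3 members stayed the same with each library left out in turn.

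**Figure D3:**
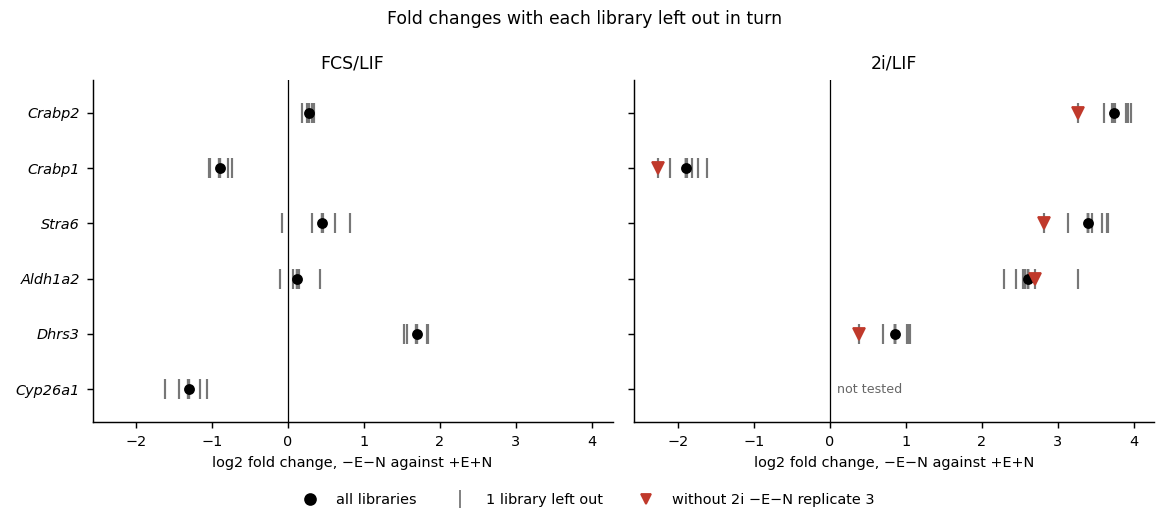
Log2 fold change in −E−N against +E+N of each retinoid gene (horizontal) with all libraries (circles), with each library left out in turn (ticks) and, in 2i/LIF, without the third −E−N library (triangles). Without that library Crabp2 and Stra6 drop to 3.27 and 2.82 and Dhrs3 to 0.39, while Aldh1a2 stays at 2.70.

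The responses to the combined loss were compared directly between media, as the log2 fold change in FCS/LIF minus that in 2i/LIF, with all 20 libraries fitted together, and called at an adjusted p under 0.01. For −E−N 3 of 6 members passed, beside 13.2% of all genes: Crabp2 with a difference of −3.44 (SE 0.393, edgeR adjusted p = 1.46e-05), Stra6 with −2.91 (SE 0.655, adjusted p = 0.00382) and Aldh1a2 with −2.45 (SE 0.604, adjusted p = 0.00706). Without the third 2i/LIF −E−N library all 3 still passed, at −3.00, −2.37 and −2.57. The calls of Stra6 and Aldh1a2 did not hold with other libraries left out: Stra6 failed without FCS +E+N replicate 1 or 2 or FCS −E−N replicate 1, and Aldh1a2 without any 1 of the 4 FCS/LIF libraries of these states, 2i +E+N replicate 2 or 3 or 2i −E−N replicate 1 or 2, the adjusted p reaching 0.0256 and 0.0424.

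Cyp26a1 differed by −2.90 (SE 1.04, adjusted p = 0.0526), and by −0.97 (adjusted p = 0.379) without the third library. Crabp1 and Dhrs3 differed by 1.03 (adjusted p = 0.183) and 0.88 (adjusted p = 0.393). With replicate number as a block Cyp26a1 (−2.65, adjusted p = 0.00534) and Crabp1 (1.07, adjusted p = 0.00868) passed as well, which made 5. Of all genes, 3703 passed with the block and 2136 without it. For −E and −N no member passed in edgeR as reported (1.06% and 0.743% of all genes), DESeq2 or limma, and 2 and 1 had an unadjusted p under 0.05 in edgeR. With the block Stra6 passed for −E (−1.54, adjusted p = 0.0041), beside 728 of all genes (171 without the block). With no filter on low counts Stra6 and Crabp2 passed for −E (−1.55, adjusted p = 2.31e-06, and −0.92, adjusted p = 0.00215) and for −N (−1.35, adjusted p = 9.38e-05, and −1.21, adjusted p = 7.48e-06). Dhrs3, called in −E−N in FCS/LIF and not in 2i/LIF, was not shown to differ between the media with the block (0.96, adjusted p = 0.0969) or without it.

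In −E−N of 2i/LIF the order of levels became Crabp2 at 67.9 ± 33.3 TPM, Stra6 at 21.2 ± 12.1, Crabp1 at 6.09 ± 2.69, Aldh1a2 at 5.24 ± 0.620, Dhrs3 at 5.18 ± 2.48 and Cyp26a1 at 0.71 ± 0.918 (SD, n = 3). Crabp2, Stra6 and Crabp1 did not overlap, and Crabp1, Aldh1a2 and Dhrs3 did. The FCS/LIF −E−N order began with Crabp2 at 35.4 ± 3.02 and Crabp1 at 9.17 ± 1.11 TPM, followed by Stra6 at 2.09 ± 1.41, Dhrs3 at 1.81 ± 0.141, Aldh1a2 at 1.18 ± 0.0354 and Cyp26a1 at 0.75 ± 0.212 (SD, n = 2), where Stra6 overlapped both Dhrs3 and Aldh1a2.

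The other genes of the pathway were read from lists by role. Of 13 genes for retinol uptake, binding and storage, 6 were tested in each medium. In −E−N 2 were higher in FCS/LIF and 3 in 2i/LIF, with none lower, and median log2 fold changes of 0.38 and 0.24 against 0 and 0.01 over all genes tested. Of all genes tested, 12.4% were higher and 6.4% lower in FCS/LIF −E−N, and 9.06% and 9.56% in 2i/LIF. These shares apply to the −E−N counts of the lists that follow as well. Stra6l, a paralogue of Stra6, responded differently between media in −E−N, by −1.96 (SE 0.446, edgeR adjusted p = 0.0041). Stra6l rose by 2.39 (adjusted p = 7.76e-05) in 2i/LIF, and Rlbp1, a retinal-binding protein, by 0.65 (adjusted p = 0.0082), a call that was lost without the third −E−N library (0.53, adjusted p = 0.0365). In FCS/LIF Rbp7, a cellular retinol-binding protein, rose by 1.195 (adjusted p = 0.0042).

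Of 21 genes that oxidise or reduce retinol and retinal, 12 were tested in FCS/LIF and 11 in 2i/LIF. In −E−N 4 were higher and 1 lower in FCS/LIF (median 0.25), and 2 higher and 1 lower in 2i/LIF (median 0.10). Rdh10, the main retinol dehydrogenase of the embryo, rose in both media, by 1.08 (SE 0.113, edgeR adjusted p = 0.000114) and 1.12 (SE 0.176, adjusted p = 0.00028), with a difference between media of −0.01 (SE 0.224, adjusted p = 0.975). Aldh1a3, which like Aldh1a2 makes retinoic acid, fell by 3.78 on the log2 scale in 2i/LIF (SE 0.415, adjusted p = 1.87e-05), from 39 to 45 counts in the controls to 3 in each −E−N library, a ratio of summed counts of 0.0708 (exact 95% interval 0.0316 to 0.139, counting error only). It was also lower in −E (−1.997, adjusted p = 0.00518) and −N (−1.58, adjusted p = 0.00978). At 0.593 ± 0.0945 TPM Aldh1a3 overlapped Aldh1a2 in the controls, and in −E−N, at 0.0367 ± 0.00577 TPM, it lay below it in every library. The dehydrogenases Rdh1 (3.39, adjusted p = 0.000162, 2i/LIF), Dhrs9 (2.35, adjusted p = 0.00296), Adh7 (2.07, adjusted p = 0.00626) and Rdh12 (1.12, adjusted p = 0.00229, the last 3 in FCS/LIF) rose from low levels, each under 1 TPM in its controls. The lower gene in FCS/LIF was the alcohol dehydrogenase Adh5, at −0.63 (adjusted p = 2.47e-05).

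Of the hydroxylases related to Cyp26a1, Cyp26b1 was tested in FCS/LIF only (0.66 in −E−N, adjusted p = 0.0715) and Cyp26c1 in neither medium. The summed level of both stayed between 0.01 and 0.44 TPM in all libraries.

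Among the 6 receptors of retinoic acid and rexinoids, 5 were tested in each medium, and 1 was higher and 1 lower in −E−N in each. Rara, the alpha retinoic acid receptor, fell in both, from 20.4 ± 1.40 to 12.7 ± 2.08 TPM in FCS/LIF (−0.85, SE 0.091, edgeR adjusted p = 0.000123) and from 20.0 ± 1.03 to 12.4 ± 1.94 TPM in 2i/LIF (−0.71, SE 0.118, adjusted p = 0.000423). Rarg, the gamma receptor and the more abundant, rose in 2i/LIF from 37.9 ± 7.46 to 62.6 ± 6.59 TPM (0.74, adjusted p = 0.00206) and stood at −0.41 in FCS/LIF (adjusted p = 0.00277, under the 1.5-fold limit), a difference between media of −1.11 (SE 0.214, adjusted p = 0.00122). Rxra, a partner of these receptors, rose in FCS/LIF by 0.91 (adjusted p = 0.00311).

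Of 15 genes known to be induced by retinoic acid, 10 were tested in FCS/LIF and 14 in 2i/LIF. In −E−N 7 were higher and 1 lower in FCS/LIF (12.4% and 6.4% of all genes tested; median 0.99 against 0 over all genes) and 7 were higher and none lower in 2i/LIF (9.06% and 9.56% of all genes; median 1.78 against 0.01), the latter 5 without the third −E−N library (median 1.31). Cdx1, a caudal-type homeobox gene, rose in both, from 0.12 ± 0.0566 to 0.61 ± 0.0283 TPM in FCS/LIF (2.13, edgeR adjusted p = 0.00312) and from 79 ± 13 to 177 ± 4.55 TPM in 2i/LIF (1.16, adjusted p = 8.39e-06). In the single losses 2 of these genes were higher in −E (3.23% of all genes) and none in −N (0.0767%) in FCS/LIF, and 2 (0.439%) and 3 (1.61%) in 2i/LIF. Hoxb1 and Hoxb2, patterning genes of the hindbrain, rose in 2i/LIF with a wide spread. Hoxb1 had 1, 1 and 7 counts in +E+N and 164, 305 and 938 in −E−N (7.22, SE 1.19, adjusted p = 0.000407), a ratio of summed counts of 157.4 (exact 95% interval 82.7 to 344.9, counting error only). Hoxb2 had 1, 9 and 9 against 26, 134 and 497 (5.07, SE 1.29, adjusted p = 0.00734), a ratio of 34.8 (22.1 to 58.2), with the third −E−N library the highest of each. Without that library Hoxb2 was not called (3.64, adjusted p = 0.0349) and Hoxb1 was (6.23, adjusted p = 0.00121). The control counts of both genes lay below the filter of 20 counts, which their −E−N counts passed, a selection that favours a rise. In FCS/LIF Meis2 rose by 2.40 (adjusted p = 4.42e-05), and Stra8, the gametogenesis gene, went against its list, falling from 1.68 ± 0.163 to 0.34 ± 0.113 TPM (−2.23, adjusted p = 0.000686).

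**Figure D4:**
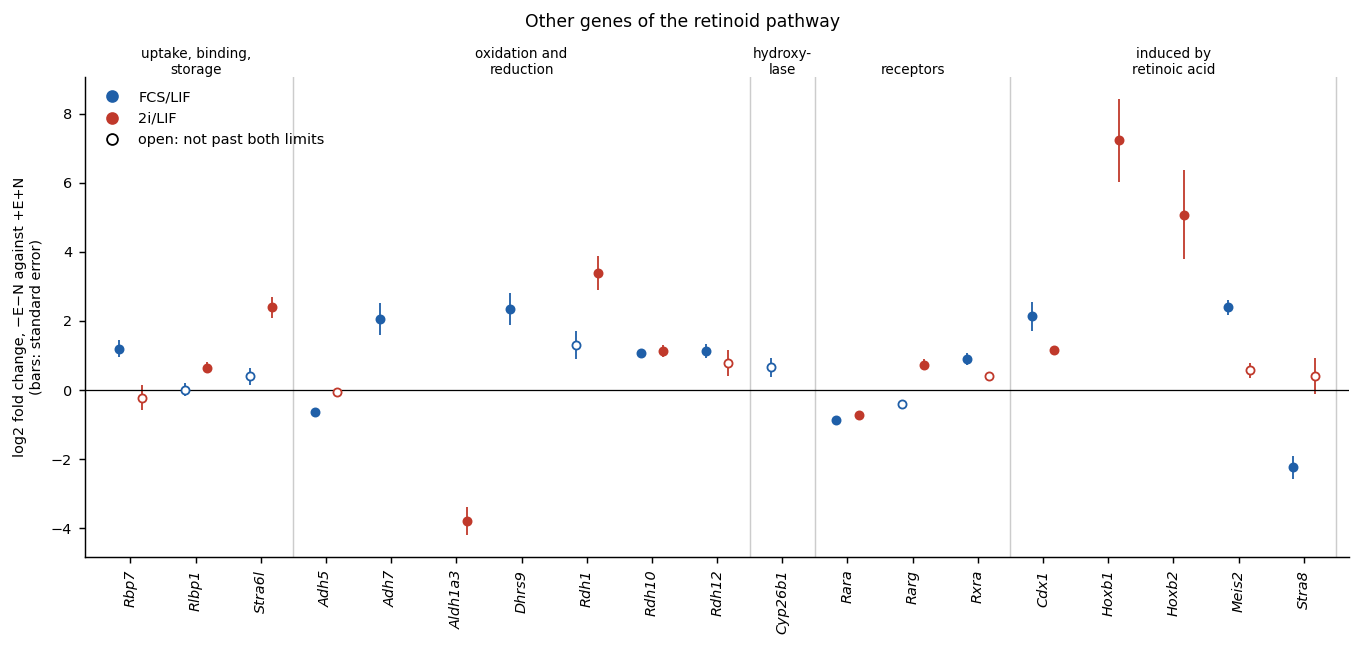
Log2 fold change in −E−N against +E+N (vertical, bars show the standard error) of the pathway genes named in the text (horizontal, grouped by role) in FCS/LIF (blue) and 2i/LIF (red); filled points passed both limits. Rdh10 rises by 1.08 and 1.12 and Rara falls in both media, and Aldh1a3, tested within 2i/LIF only, falls there by 3.78.

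Markers of other cell states moved in the same libraries, where 12.4% of all genes tested were higher and 6.4% lower in FCS/LIF −E−N. In 2i/LIF −E−N these shares were 9.06% and 9.56%. Of 10 ESC markers 9 were lower in −E−N in each medium, their summed level going from 7849 to 7981 TPM in +E+N to 4580 to 4966 in FCS/LIF and from 7744 to 8159 to 2877 to 3878 in 2i/LIF, where the lowest sum was that of the third −E−N library. Trophectoderm markers went up, with 8 of 10 tested higher in FCS/LIF (300.9 to 357 TPM in +E+N, 1241 to 1883 in −E−N) and 6 of 8 higher and 1 lower, Eomes, in 2i/LIF (44.4 to 55.9 and 223 to 365, the highest in the third library). Of the primitive streak and mesoderm markers 4 of 6 tested were higher and none lower in FCS/LIF, and 1 of 4 was higher and 2 lower in 2i/LIF. Of the primitive endoderm markers 2 of 9 were higher and 1 lower in FCS/LIF, and 2 of 7 higher and 2 lower in 2i/LIF, and of the neural progenitor markers 3 of 6 were higher and 1 lower in FCS/LIF and 1 of 3 higher in 2i/LIF. Without the third −E−N library the 2i/LIF counts of ESC, trophectoderm and neural markers were the same, and those of primitive endoderm and streak markers were 1 of 7 higher and 1 lower and 2 of 6 higher and 2 lower.

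In 2i/LIF −E−N the summed levels were 7.62 to 9.72 TPM for primitive endoderm, 7.31 to 15.2 for streak and mesoderm, and 10.6 to 11.9 for neural progenitors. In the 2i/LIF controls they were, in the same order, 8.2 to 10.2, 15.5 to 17.6 and 7.92 to 10.6 TPM. Msgn1, Neurog2 and Olig2 were at 0 in all 2i/LIF −E−N libraries. In FCS/LIF −E−N the sums were 94.1 to 112 TPM for primitive endoderm, 14.9 to 15.3 for streak and mesoderm, and 47.8 to 49.2 for neural progenitors. In FCS/LIF +E+N they were, in the same order, 42.5 to 58.6, 3.09 to 3.84 and 18.5 to 24.4 TPM. The members of these lists with the largest log2 fold changes in −E−N were, for ESCs, Zfp42 (−3.44), Klf4 (−3.21), Tfcp2l1 (−2.30) and Fgf4 (−1.82) in FCS/LIF and Fgf4 (−2.40), Tdgf1 (−1.98), Klf4 (−1.77) and Tbx3 (−1.54) in 2i/LIF. For trophectoderm they were Krt8 (2.33), Krt18 (2.30), Elf5 (2.30) and Krt7 (2.03) in FCS/LIF and Cdx2 (5.03), Krt18 (4.43), Krt7 (3.99) and Krt8 (3.96) in 2i/LIF. The called primitive endoderm markers were Dab2 (1.57), Col4a1 (1.31) and Lama1 (−0.98) in FCS/LIF and Lama1 (−4.85), Foxa2 (3.12), Gata4 (−1.52) and Pdgfra (1.199) in 2i/LIF. Those of streak and mesoderm were Wnt3 (3.39), Fgf8 (3.18), T (2.51) and Eomes (1.22) in FCS/LIF and Gsc (−2.79), T (2.44) and Eomes (−1.94) in 2i/LIF, and those named of neural progenitors were Nes (2.07), Pax6 (−1.31) and Sox1 (1.06) in FCS/LIF and Pax6 (1.94) in 2i/LIF. The part of these cell states in the retinoid values was not tested.

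Likeness of profile was described by the mean of the correlations of log2 counts, scaled to library size, within each medium, over 8 FCS/LIF and 12 2i/LIF libraries that share the group structure. Among 11632 other genes, each averaging 100 counts or more, the nearest to Crabp2 were Ptpn6 (mean r = 0.943) and Vrtn (0.922), and the nearest to Crabp1 were Ccpg1 (0.949) and Gprasp2 (0.947). Stra6 was nearest to Usp22 (0.93) and Sec63 (0.899), Aldh1a2 to Sstr5 (0.849) and Mapkap1 (0.839), Dhrs3 to Zfp326 (0.834) and Arhgef26 (0.832), and Cyp26a1, over the FCS/LIF libraries alone, to Colgalt1 (0.991) and Cnpy2 (0.99). A high r did not mean a like size of change: in 2i/LIF −E−N Vrtn rose by 2.90 and Ptpn6 by 1.23, and Usp22 by 0.32, which was not called (edgeR adjusted p = 0.0102). Among the members themselves the 2i/LIF profiles of Crabp2 and Stra6 were the most alike (r = 0.947) and those of Crabp1 and Aldh1a2 the most opposed (r = −0.815). In FCS/LIF the same pairs had r = −0.026 and −0.016.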

How the data were processed

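Stranded poly-A RNA of 20 libraries was sequenced as read pairs. Per the labels and the study's methods, the authors aligned reads to mm10 with STAR and quantified genes with RSEM (versions not given in the sources used here), and deposited a table of expected counts, all whole numbers, and a table of TPM. The strand setting of the counting is not given in the sources used here. The 92 spike-in rows, with 0 counts in all, were left out. The 69 ChIP-seq samples were not analysed here.

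The deposited counts were tested with edgeR 4.0.16 in R 4.3.3 (TMM scaling, quasi-likelihood F test, two-sided) on genes that reached 20 counts in every replicate of some state, within each medium and, for comparisons of media, over all libraries, with adjustment over all genes tested. Two-group calls needed an adjusted p under 0.01 and a fold over 1.5; differences of differences the former only. By the count filter, a gene low in some states could enter through the states where it was high. Deposited TPM served for levels. Alternatives were DESeq2 1.42.0, its size factors in edgeR, no or another filter, a replicate block, limma 3.58.1 on log2 TPM after adding 1 or 0.1, and each library left out; list counts without the third 2i/LIF −E−N library were added after seeing the data. Replicate numbers were taken to pair 2i/LIF libraries where every same-numbered pair of a comparison correlated over 0.1 in its deviations from group means (17 of 18 did, −0.0126 to 0.572, median 0.383). In FCS/LIF, with n = 2, replicates 1 and 2 of a comparison give the same value by construction. These values ran from 0.0361 to 0.36 (median 0.115) and were over 0.1 in all comparisons but −E with +E+N. Replicates differed by more than counting noise (chi-square per degree of freedom 4.28 to 28.3).

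Named were all members, Esrrb and Nr5a2, up to 4 called genes a list by size of change in −E−N, and the 2 genes most like each member. Ccdc33, Gm16131 and Gm48124, as overlapping genes, and Adh5, Cyp26b1 and the markers at 0 were named after their values were seen. Some genes that the rule names are not reported here; list counts include them. Members, lists and motifs were chosen with earlier results of these data known. Fits were tested on simulated counts. Promoters came from RefSeq (GRCm38.p6), with 5 of 6 members matched (all but Crabp2). Figures were drawn with Matplotlib.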

Additional observations from a re-analysis of the deposited data

Results flagged for a closer look

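Of the retinoid genes, 3 responded differently to the combined loss of Esrrb and Nr5a2 in FCS/LIF and in 2i/LIF by a direct test of the difference in edgeR. The difference, as the log2 fold change in FCS/LIF minus that in 2i/LIF, was −3.44 for Crabp2, −2.91 for Stra6 and −2.45 for Aldh1a2 (adjusted p = 1.46e-05, 0.00382 and 0.00706). In 2i/LIF all 3 −E−N libraries lay above all 3 controls for each of the 3 genes. In FCS/LIF the −E−N libraries lay above the controls for Crabp2 as well, and the groups overlapped for Stra6 and Aldh1a2. Of all genes tested, 52.9% in 2i/LIF and 74.2% in FCS/LIF did not overlap between −E−N and +E+N. The calls of Stra6 and Aldh1a2 were lost with some single libraries left out. The medium cannot be told apart from the culture series.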

How the results depend on the processing

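The 4 members called in 2i/LIF −E−N were also called with DESeq2, limma and the replicate block, and the 3 called in FCS/LIF −E−N with these as well. Counts of under 100 limit Cyp26a1, Dhrs3 and, in controls, Aldh1a2, and n = 2 limits FCS/LIF. Values in parentheses are those of the reported fits. With DESeq2, members called came to 0 in FCS −E against +E+N (1), 1 in 2i −E against +E+N (0) and 2 in 2i −N against +E+N (0). With no filter on low counts, members called came to 3 in FCS −E−N against −N (1), 2 in 2i −E against +E+N (0), 2 in 2i −N against +E+N (0), 2 in the difference between media of −E (0) and 2 in the difference between media of −N (0). With the replicate block, members called came to 2 in FCS −E−N against −N (1), 2 in 2i −E against +E+N (0), 3 in 2i −N against +E+N (0), 1 in the difference between media of −E (0) and 5 in the difference between media of −E−N (3). As single libraries were left out, members called ranged from 0 to 1 in FCS −E against +E+N, 0 to 3 in FCS −E−N against +E+N, 0 to 1 in 2i −E against +E+N, 0 to 1 in 2i −N against +E+N, 1 to 3 in 2i −E−N against −N, 1 to 4 in 2i −E−N against −E, 1 to 3 in 2i +E+N against FCS +E+N and 1 to 3 in the difference between media of −E−N. With no filter on low counts, genes called came to 1631 in FCS −E against +E+N (901), 548 in FCS −N against +E+N (27), 2556 in FCS −E−N against −N (1573), 1571 in FCS −E−N against −E (790), 242 in the FCS interaction (5), 401 in 2i −E against +E+N (223), 828 in 2i −N against +E+N (524), 212 in the 2i interaction (44), 706 in the difference between media of −E (171) and 809 in the difference between media of −N (120). With limma on log2(TPM + 1), genes called came to 553 in FCS −E against +E+N (901), 9 in FCS −N against +E+N (27), 482 in FCS −E−N against −E (790), 2 in the FCS interaction (5), 136 in 2i −E against +E+N (223), 313 in 2i −N against +E+N (524), 11 in the 2i interaction (44), 280 in the difference between media of −E (171) and 70 in the difference between media of −N (120). With DESeq2, genes called came to 264 in FCS −N against +E+N (27), 63 in the FCS interaction (5), 447 in 2i −E against +E+N (223), 860 in 2i −N against +E+N (524), 303 in the 2i interaction (44), 532 in the difference between media of −E (171) and 456 in the difference between media of −N (120). With the replicate block, genes called came to 305 in FCS −N against +E+N (27), 1265 in FCS −E−N against −E (790), 40 in the FCS interaction (5), 596 in 2i −E against +E+N (223), 1115 in 2i −N against +E+N (524), 1622 in 2i −E−N against −N (970), 324 in the 2i interaction (44), 728 in the difference between media of −E (171), 686 in the difference between media of −N (120) and 3703 in the difference between media of −E−N (2136). With limma on log2(TPM + 0.1), genes called came to 7 in FCS −N against +E+N (27), 467 in FCS −E−N against −E (790), 146 in 2i −E against +E+N (223), 309 in 2i −N against +E+N (524), 7 in the 2i interaction (44) and 56 in the difference between media of −N (120). As single libraries were left out, genes called ranged from 314 to 963 in FCS −E against +E+N, 5 to 12 in FCS −N against +E+N, 1812 to 3076 in FCS −E−N against +E+N, 679 to 1668 in FCS −E−N against −N, 84 to 897 in FCS −E−N against −E, 0 to 9 in the FCS interaction, 87 to 251 in 2i −E against +E+N, 243 to 569 in 2i −N against +E+N, 510 to 998 in 2i −E−N against −N, 7 to 52 in the 2i interaction, 31 to 221 in the difference between media of −E, 47 to 181 in the difference between media of −N and 1220 to 2406 in the difference between media of −E−N. Signs turned only for values that were not called: Aldh1a2 was 0.047 in FCS −E against +E+N with limma on log2(TPM + 1), Aldh1a2 was 0.082 in FCS −E against +E+N with limma on log2(TPM + 0.1), Aldh1a2 was 0.004 in FCS −E−N against −N with the replicate block, Aldh1a2 was 0.059 in FCS −E−N against −N with limma on log2(TPM + 1), Aldh1a2 was 0.11 in FCS −E−N against −N with limma on log2(TPM + 0.1) and Aldh1a2 was 0.50 in 2i +E+N against FCS +E+N with the replicate block. With a library left out, Cyp26a1 ranged from −0.39 to 0.17 in FCS −E−N against −E, Crabp2 ranged from −0.063 to 0.20 in FCS −N against +E+N, Dhrs3 ranged from −0.094 to 0.44 in 2i −E against +E+N, Dhrs3 ranged from −0.39 to 0.57 in 2i −N against +E+N, Aldh1a2 ranged from −0.41 to 0.30 in FCS −E against +E+N, Aldh1a2 ranged from −0.098 to 0.43 in FCS −N against +E+N, Aldh1a2 ranged from −0.11 to 0.42 in FCS −E−N against +E+N, Aldh1a2 ranged from −0.18 to 0.20 in FCS −E−N against −N, Aldh1a2 ranged from −0.19 to 0.53 in FCS −E−N against −E, Aldh1a2 ranged from −0.81 to 0.18 in 2i +E+N against FCS +E+N, Stra6 ranged from −0.13 to 0.18 in FCS −E against +E+N, Stra6 ranged from −0.74 to 0.028 in FCS −N against +E+N, Stra6 ranged from −0.082 to 0.82 in FCS −E−N against +E+N and Stra6 ranged from −0.10 to 0.80 in FCS −E−N against −E. Correlations of deviations between same-numbered FCS/LIF libraries ran from 0.0361 to 0.36, and were over 0.1 in all comparisons but −E with +E+N. With n = 2 each comparison holds a single such value. With the replicate block Cyp26a1 was called in FCS/LIF in −E−N against −N (−1.05, edgeR adjusted p = 0.00541). Cyp26a1 (−2.65, adjusted p = 0.00534) and Crabp1 (1.07, adjusted p = 0.00868) differed with the block between media in −E−N. The block changed no other call of a member than these and those given in the report. Without FCS −E−N replicate 2 none of the 3 calls in FCS/LIF −E−N was left. Limma on TPM moved the median of all genes by up to 0.159 on the log2 scale in FCS/LIF −E−N. Why counts moved with a setting was not tested.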
